A study of Mus musculus with 6 samples.

Results

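The embryonic globins and erythroid genes described here are 9 mouse genes of the primitive red cell, namely Hbb-y, Hbb-bh1, Hba-x, Hba-a1, Alas2, Gata1, Klf1, Slc4a1 and Nfe2. They were chosen by symbol. A discovery probe counted as a member where the gene that the scanner report gave for it was one of these symbols. This found 10 of the 34967 discovery probes, for 8 of the 9 genes, with 3 probes for Hbb-y and 1 for each of the others. All 8 genes were among the 14316 genes tested. No probe was given to Hbb-bh1 in the reports, and its transcript was not analysed here on its own.

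Mouse embryos of embryonic day 9.5 were cut below the forelimb and RNA was taken from the hind portion, at a stage when they averaged 21.3 somite pairs and the posterior neuropore was open. The 3 Splotch null samples were set against 3 wild-type samples, each on its own one-colour CodeLink array. Splotch is a mutation of the transcription factor gene Pax3. The Pax3 probe GE34160 had intensities of 1484, 1354 and 1789.6 in Splotch null and 1138, 1694 and 1283 in wild type, which overlap, as did those of the other Pax3 probe. Where these probes lie relative to the mutation was not given, so they do not check the labels. All 6 samples shared the strain label LMBc, and the labels gave no allele and did not say whether a sample was 1 embryo or a pool, so the p-values measure only the spread between these samples. One label field named the anterior neural tube and the others the posterior. Genes of the caudal embryo were measured in all 11 of 11 listed cases, among them the tail bud gene Cdx2, which was above background on all 6 arrays. Genes of the anterior embryo were not listed for comparison, so this does not decide between the label fields.

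At this stage the circulating red cells are primitive erythroid cells, which form in the blood islands of the yolk sac, enter the embryo with the first heartbeats and mature while in the bloodstream. They carry embryonic haemoglobins built from the alpha-like chain of Hba-x and the beta-like chains of Hbb-y and Hbb-bh1, together with adult-type alpha chains. GATA1 and KLF1 are the transcription factors that switch on the genes of haemoglobin, heme synthesis and the red cell membrane. In a bulk sample, fewer red cells and less RNA per red cell cannot be told apart.

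Intensities are background-subtracted scanner units. The median discovery probe lay at 86.4, 86.7 and 121.1 on Splotch null 1, 2 and 3, and at 116.3, 99.7 and 84.3 on wild type 1, 2 and 3. Between 66.1% and 71.7% of the probes were above background, and 56 to 95 probes per array were saturated. Differences and tests use log2 of the intensity plus 50 after quantile normalization over all arrays. Splotch null 2 stood apart in genes of the visceral endoderm and yolk sac. The summed intensity of 15 such genes was 71075 on that array, and 7142 and 4130 on Splotch null 1 and 3, against 5909 to 12082 in wild type. With 3 arrays per genotype, precision is limited by their number.

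No member passed the test of Splotch null against wild type across all probes. With limma and Benjamini-Hochberg adjustment, 0 of 10 member probes passed 0.05, and 0 of the 24434 probes tested did, a background of 0%. At an unadjusted p under 0.05 there were again 0 member probes, against 328 of all probes, or 1.34%. In 0 of the 9 member probes measured on every array were the genotypes free of overlap, against 5.24% of all such probes, and 3.13% that did so with Splotch null brighter. All 8 genes had a mean that was higher in Splotch null, by 0.053 to 0.46 on the log2 scale with a median of 0.27. Over all genes tested the median difference was 0.017, and 55.0% of genes were higher in Splotch null. What the 5 members that are not globins did show was a wide spread between the wild-type arrays. For these genes wild type 1 stood at the top of all arrays and wild type 2 and 3 at the bottom.

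**Figure D1:**
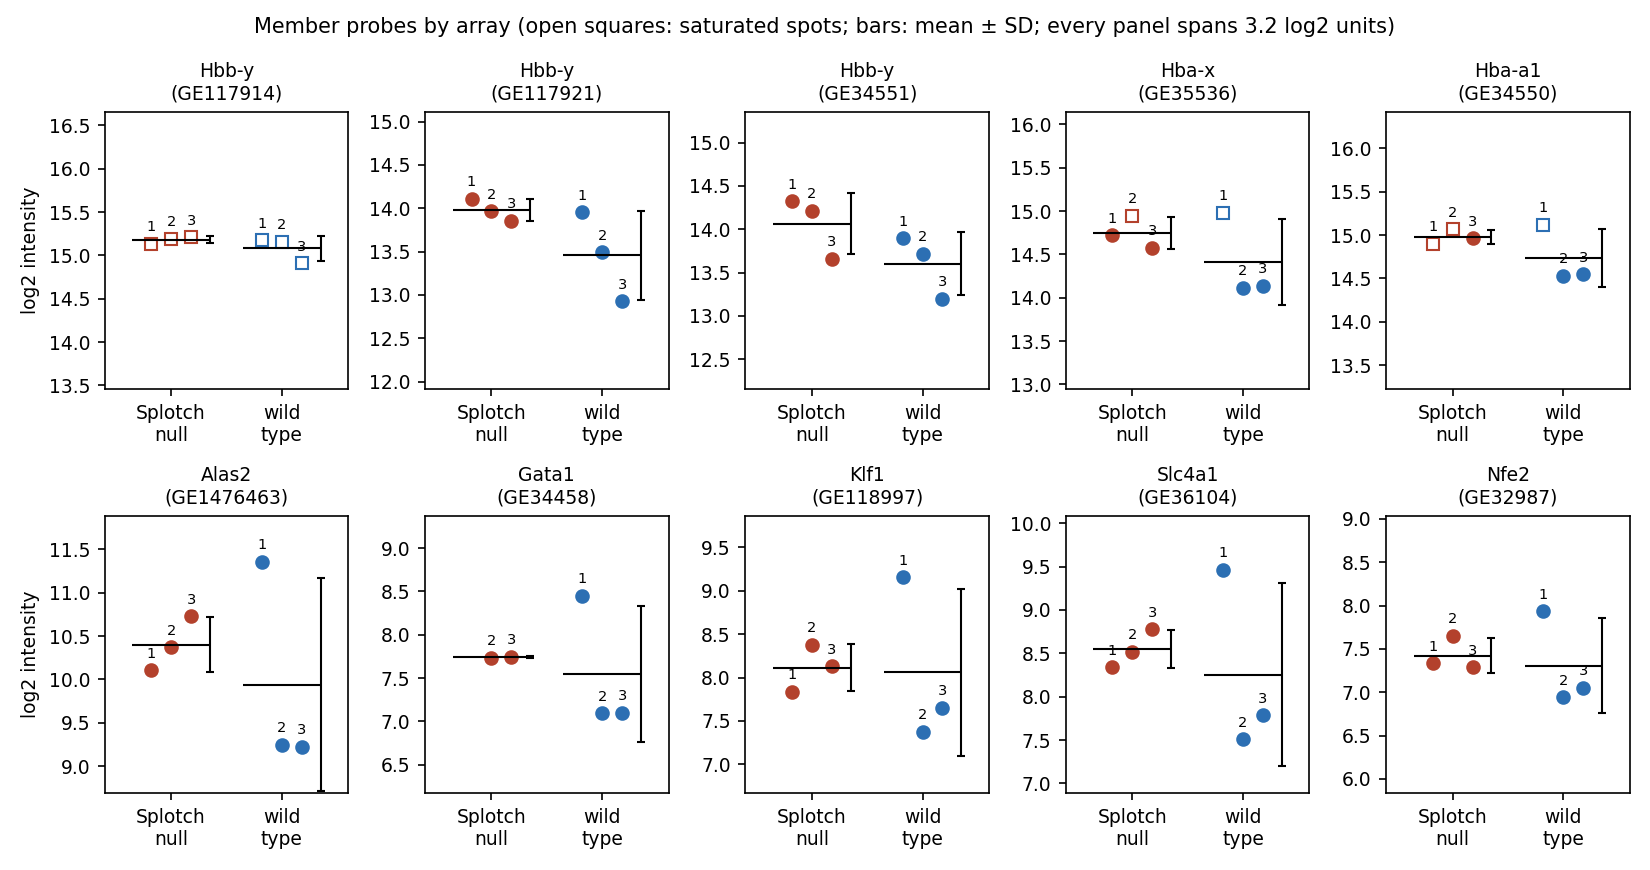
Normalized log2 intensity of the 10 member probes on each array, with Splotch null to the left of wild type, the replicate number above each point, and the mean and SD of each genotype in black. Open squares are saturated spots, Gata1 has no usable spot on Splotch null 1, and in the 5 panels of the lower row wild type 1 lies above every other array while wild type 2 and 3 lie lowest. Saturated spots have no order among themselves.

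The promoters of the members are shown because the members include genes that varied together over the arrays and factors that bind such sequences. RefSeq (GRCm38.p6) gave promoters for 6 of the 9 genes, and not for Hbb-bh1, Slc4a1 and Nfe2, each with 250 bases before and 50 after the start of the gene. They lie at chr7:103853158-103853457 (minus strand) for Hbb-y, chr11:32276350-32276649 (plus strand) for Hba-x, chr11:32283422-32283721 (plus strand) for Hba-a1, chrX:150547167-150547466 (plus strand) for Alas2, chrX:7967861-7968160 (minus strand) for Gata1 and chr8:84901732-84902031 (plus strand) for Klf1. They are written 5′ to 3′ on the strand of the gene. Capitals mark a match on either strand to the GATA motif (the letters GATA with A or T before them and A or G after them) or to the CACCC motif (CCNCNCCC).
Hbb-y: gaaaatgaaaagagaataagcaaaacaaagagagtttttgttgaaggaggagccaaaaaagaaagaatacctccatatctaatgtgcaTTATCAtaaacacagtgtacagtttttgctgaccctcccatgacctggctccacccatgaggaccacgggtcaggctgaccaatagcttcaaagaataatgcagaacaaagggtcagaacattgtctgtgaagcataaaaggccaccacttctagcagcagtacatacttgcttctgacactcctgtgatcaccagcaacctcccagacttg
Hba-x: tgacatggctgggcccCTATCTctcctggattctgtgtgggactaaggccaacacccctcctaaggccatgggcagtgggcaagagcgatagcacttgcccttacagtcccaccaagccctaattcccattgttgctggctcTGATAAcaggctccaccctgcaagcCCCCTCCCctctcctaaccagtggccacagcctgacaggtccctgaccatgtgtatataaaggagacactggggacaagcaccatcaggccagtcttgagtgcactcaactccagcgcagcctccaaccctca
Hba-a1: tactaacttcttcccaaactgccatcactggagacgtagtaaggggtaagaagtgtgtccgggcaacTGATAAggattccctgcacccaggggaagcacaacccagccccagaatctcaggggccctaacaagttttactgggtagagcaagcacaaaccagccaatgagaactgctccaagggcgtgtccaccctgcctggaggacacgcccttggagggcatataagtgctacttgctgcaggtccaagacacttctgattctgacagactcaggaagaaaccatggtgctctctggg
Alas2: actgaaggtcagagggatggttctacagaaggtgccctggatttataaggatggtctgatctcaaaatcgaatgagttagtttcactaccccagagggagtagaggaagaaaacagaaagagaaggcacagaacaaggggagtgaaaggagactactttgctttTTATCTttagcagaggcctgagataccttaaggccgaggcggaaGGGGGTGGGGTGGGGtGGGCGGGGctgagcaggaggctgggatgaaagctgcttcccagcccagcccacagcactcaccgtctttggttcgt
Gata1: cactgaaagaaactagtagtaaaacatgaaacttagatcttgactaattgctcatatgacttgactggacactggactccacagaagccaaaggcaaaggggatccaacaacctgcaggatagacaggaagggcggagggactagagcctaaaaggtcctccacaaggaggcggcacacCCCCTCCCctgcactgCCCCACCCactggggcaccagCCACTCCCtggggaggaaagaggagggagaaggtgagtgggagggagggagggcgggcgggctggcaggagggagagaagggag
Klf1: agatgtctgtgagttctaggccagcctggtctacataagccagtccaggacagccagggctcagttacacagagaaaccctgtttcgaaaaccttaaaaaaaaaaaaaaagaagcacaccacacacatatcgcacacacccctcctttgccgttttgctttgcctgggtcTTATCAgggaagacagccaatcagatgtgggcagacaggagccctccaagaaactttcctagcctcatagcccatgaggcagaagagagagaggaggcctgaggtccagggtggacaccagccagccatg
A GATA match was found in 5 of the 6 promoters, all but that of Gata1, and 29.6% of 32544 RefSeq promoters held it. A CACCC match was found in those of Hba-x, Alas2 and Gata1, and 49.7% of all promoters held it. The Alas2 promoter carried 4 such matches, of which 3 overlap each other, and the Gata1 promoter carried 3 separate ones. The NF-E2 core (TGANTCA) matched in 0 of the 6, against 7.79% of all promoters. A match describes these letters only.

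The embryonic beta-like globin Hbb-y was read by 3 probes. Probe GE34551, which both annotations gave to Hbb-y alone, had intensities of 21397, 20259 and 12998 in Splotch null and 14132, 13513 and 9247 in wild type. Splotch null 1 and 2 lay above all wild-type arrays, while Splotch null 3 lay below wild type 1 and 2, so that the genotypes overlapped. On the log2 scale the means were 14.06 ± 0.36 in Splotch null and 13.60 ± 0.36 in wild type (SD, n = 3 each). Splotch null thus exceeded wild type by 0.46 (SE 0.24; 95% interval -0.11 to 1.03). The exact permutation test, two-sided here and below, gave p = 0.3, and with 3 against 3 it cannot go below 0.1.

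Probe GE117921 had intensities of 18208, 16763 and 14483 in Splotch null and 14631, 11463 and 7576 in wild type. The platform annotation assigned this probe to Hbb-y, Hbb-bh1 and the adult beta globins together, so it may read several beta-like transcripts. Its log2 difference was 0.52 (SE 0.25), with an exact permutation p of 0.2. Only wild type 1, which lay just above Splotch null 3, kept the genotypes from separating. The last probe, GE117914, which the platform gave to Hbb-y and Hbb-bh1, was saturated on all 6 arrays. It read 37372, 38319 and 36625 in Splotch null and 35285, 37316 and 30833 in wild type, and no fold is given for it.

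Hba-x, the embryonic alpha-like globin, had intensities of 28157, 32818 and 23246 in Splotch null and 30489, 18140.3 and 18531 in wild type. The spots of Splotch null 2 and wild type 1 were saturated, so their true signal may be higher. These same arrays were the highest of their genotype, and wild type 2 and 3 lay below all the others. The log2 difference was 0.34 (SE 0.25; 95% interval -0.25 to 0.92; exact permutation p = 0.4). With saturated spots left out it was 0.47 (SE 0.19) over the 4 remaining arrays.

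Hba-a1, the adult-type alpha globin, had intensities of 31628, 35755 and 30316 in Splotch null and 32899.6, 24309.6 and 24592 in wild type. Wild type 2 and 3 lay below all the other arrays, as for Hba-x. The spots of Splotch null 1, Splotch null 2 and wild type 1 were saturated, so no order can be read among them. The log2 difference was 0.24 (SE 0.18; exact permutation p = 0.4). The platform annotation listed a second gene, Fcrls, for this probe, and the near-identical copy Hba-a2 cannot be told apart from Hba-a1 by it. A further probe, GE121170, which the platform table listed under Hba-a1 beside Ost4, was given to Ost4 by its accession in the reports and was not counted as a member. It read 25365, 25518 and 10735 in Splotch null and 9873, 24504 and 22854 in wild type, and was low on Splotch null 3 and wild type 1.

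The remaining members are not globins and lay far below saturation. After normalization all of them but Nfe2 spread over the arrays more widely than any globin probe. Alas2 encodes the erythroid form of the first enzyme of heme synthesis. Its intensities were 948, 1214 and 1919.9 in Splotch null and 2815, 542 and 475 in wild type. Before normalization wild type 1 was 5.92-fold above wild type 3, and all Splotch null arrays lay between wild type 1 and the other wild-type arrays. After normalization the means were 10.40 ± 0.31 in Splotch null and 9.94 ± 1.22 in wild type (SD, n = 3 each). The difference was 0.46 (SE 0.55; 95% interval -0.84 to 1.76; exact permutation p = 0.6). Its promoter, printed above, holds matches to both the GATA and the CACCC motif.

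Gata1, the zinc finger transcription factor of red cells and megakaryocytes, had intensities of 142 and 206 on Splotch null 2 and 3 and of 361, 87.7 and 74.7 in wild type. The spot of Splotch null 1, at 106, carried a flag other than good, near background or saturated and was left out. The usable Splotch null arrays again lay between wild type 1 and the other wild-type arrays. The log2 difference was 0.19 (SE 0.42) with 2 Splotch null and 3 wild-type arrays, and 0.087 (SE 0.36) with the Splotch null 1 spot restored.

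Klf1, the zinc finger factor that binds CACCC elements of globin and other red cell genes, had intensities of 155, 252 and 287 in Splotch null and 611, 118 and 127 in wild type. Wild type 1 was 5.19-fold above the lowest wild-type array, whereas the Splotch null arrays spanned 1.85-fold. The means were nearly level, at 8.11 ± 0.27 in Splotch null and 8.06 ± 0.96 in wild type on the log2 scale (SD, n = 3 each). The difference was 0.053 (SE 0.44; 95% interval -0.98 to 1.09; exact permutation p = 1). This interval reaches about 1 log2 unit to either side of 0.

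Nfe2 encodes the erythroid subunit of NF-E2, a factor of globin enhancers and of platelet formation. It had intensities of 97.1, 132 and 132 in Splotch null and 235, 73.9 and 71.2 in wild type. Its range over the arrays was the narrowest of the non-globin members after normalization, at 1.99-fold. This was below the 2.18-fold of Hbb-y probe GE34551 and the 2.27-fold of Hbb-y probe GE117921. The log2 difference was 0.12 (SE 0.27; exact permutation p = 0.8).

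Slc4a1, the anion exchanger band 3 of the red cell membrane, had intensities of 239, 285 and 476 in Splotch null and 762, 134 and 144 in wild type. Wild type 1 was 5.70-fold above wild type 2, and the Splotch null arrays spanned 1.99-fold between them. The means were 8.54 ± 0.22 in Splotch null and 8.25 ± 1.06 in wild type (log2, SD, n = 3 each). The difference was 0.29 (SE 0.48; 95% interval -0.83 to 1.41; exact permutation p = 0.7).

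**Figure D2:**
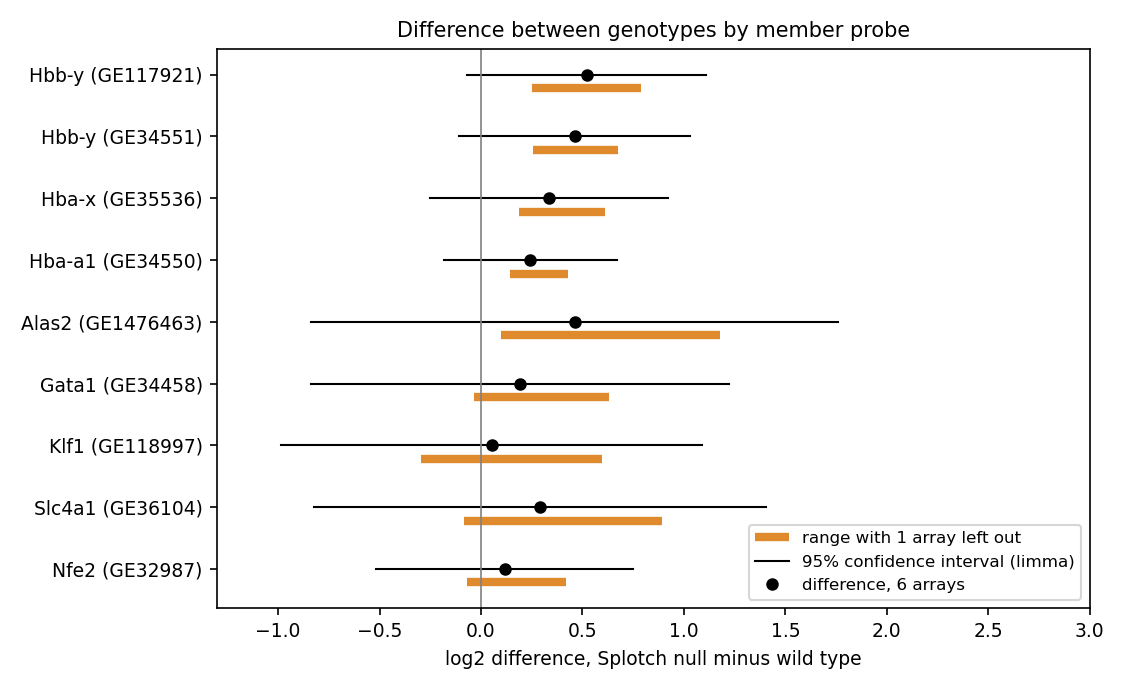
Log2 difference of Splotch null minus wild type for the 9 member probes that were not saturated on every array, as points with 95% confidence intervals from limma in black. Orange bars span the differences found with each array left out in turn. All points lie above 0, all intervals include 0, and the orange bars of Gata1, Klf1, Slc4a1 and Nfe2 reach below 0.

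The spread of the non-globin members between arrays of 1 genotype was large for this data set, mainly in wild type. The pooled within-genotype SD was 0.89 for Alas2, 0.76 for Slc4a1, 0.71 for Klf1, 0.64 for Gata1 and 0.41 for Nfe2, on the log2 scale. The median over all probes was 0.20, and 99.5% of probes had a smaller SD than Alas2. For Slc4a1, Klf1, Gata1 and Nfe2 the shares were 98.6%, 98.1%, 97.1% and 87.6%. The globin probes that were not saturated throughout had SDs of 0.24 to 0.37. Saturation limits how far the brightest of them could spread. In wild type alone the SD was 1.22 for Alas2, 1.06 for Slc4a1, 0.96 for Klf1, 0.78 for Gata1 and 0.54 for Nfe2. In Splotch null alone it was 0.31, 0.22, 0.27, 0.0083 and 0.20 for the same genes in the same order, with 2 arrays for Gata1.

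The 5 non-globin members kept almost the same order over the arrays. Relative to wild type 3, wild type 1 was higher by 2.13 for Alas2, 1.67 for Slc4a1, 1.51 for Klf1, 1.35 for Gata1 and 0.88 for Nfe2 (log2). Wild type 2 differed from wild type 3 by 0.025, -0.28, -0.28, -0.0062 and -0.11 for the same genes in the same order. Averaged over these genes, Splotch null 2 and 3 each lay 0.77 above wild type 3. Splotch null 1 lay 0.48 above it over the 4 genes other than Gata1. The beta-like globin departed from this order. Hbb-y, by probe GE34551, was highest on Splotch null 1 and 2, on which Alas2 lay below both wild type 1 and Splotch null 3.

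All 4 non-globin members measured on all 6 arrays were highest on wild type 1 and lowest on wild type 2 and 3, as was Gata1 on its 5 usable arrays. For Hba-x and Hba-a1 wild type 2 and 3 were also lowest, but the top is not known, since wild type 1 and Splotch null 2 were both saturated. Among all 13767 genes measured on all arrays, 172 or 1.25% were highest on wild type 1 and lowest on wild type 2 and 3. The order was noticed in the members first, so the share describes how common it was and is no test.

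Wild type 1 and Splotch null 3 had the brightest medians of the 6 arrays. After normalization they were also the highest arrays for Alas2 and Slc4a1, and for Gata1 on its usable arrays. They were not for Klf1 or Nfe2, where Splotch null 2 lay above Splotch null 3. Before normalization Splotch null 3 lay above Splotch null 2 for Klf1, at 287 against 252, and the arrays were level for Nfe2, at 132 each. Between these brightest arrays, Splotch null 3 was below wild type 1 for each non-globin member, by -1.03 to -0.63. Among the other 4 arrays, Splotch null was above wild type for each of them, by 0.50 for Nfe2 to 1.01 for Alas2. For each of these genes wild type 1 was the highest array and wild type 2 and 3 the lowest. Both signs were therefore fixed by that order, and the values are a description and no test. With the log2 median of each array as a covariate, added once the data had been seen, the difference was 0.55 (SE 0.39) for Alas2, 0.36 (SE 0.36) for Slc4a1 and 0.10 (SE 0.38) for Klf1.

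With wild type 1 left out, the difference of each of the 8 genes was larger. Alas2 then differed by 1.18 (SE 0.21), Slc4a1 by 0.89 (SE 0.18), Gata1 by 0.63 (SE 0.15), Klf1 by 0.60 (SE 0.20) and Nfe2 by 0.42 (SE 0.16). Hba-x differed by 0.61 (SE 0.16), Hba-a1 by 0.43 (SE 0.13) and Hbb-y, by probe GE34551, by 0.62 (SE 0.26). The genotypes then did not overlap for 7 of the 9 member probes measured on all 5 arrays, against 12% of all such probes, and 6.47% with Splotch null brighter. At an unadjusted p under 0.05 there were 8 of 10 member probes, against 0.88% of all probes, yet the limma adjusted p was 1 for each of them. Wild type 1 was the highest wild-type array for each of the 8 genes. Its removal could only raise these differences, and they are given as a description. In the 7 probes without overlap, the other wild-type arrays were already the lowest with all arrays used. Removing wild type 1 therefore had to separate the genotypes there. The unadjusted p-values rest on the same choice of array. Both counts are thus a description, and setting them beside the shares of all probes is no test. The median over the 8 genes was 0.61 without wild type 1 and 0.040 without wild type 2. Without wild type 2 the differences of Gata1, Klf1, Slc4a1 and Nfe2 were instead below 0, at -0.037, -0.29, -0.083 and -0.069.

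**Figure D3:**
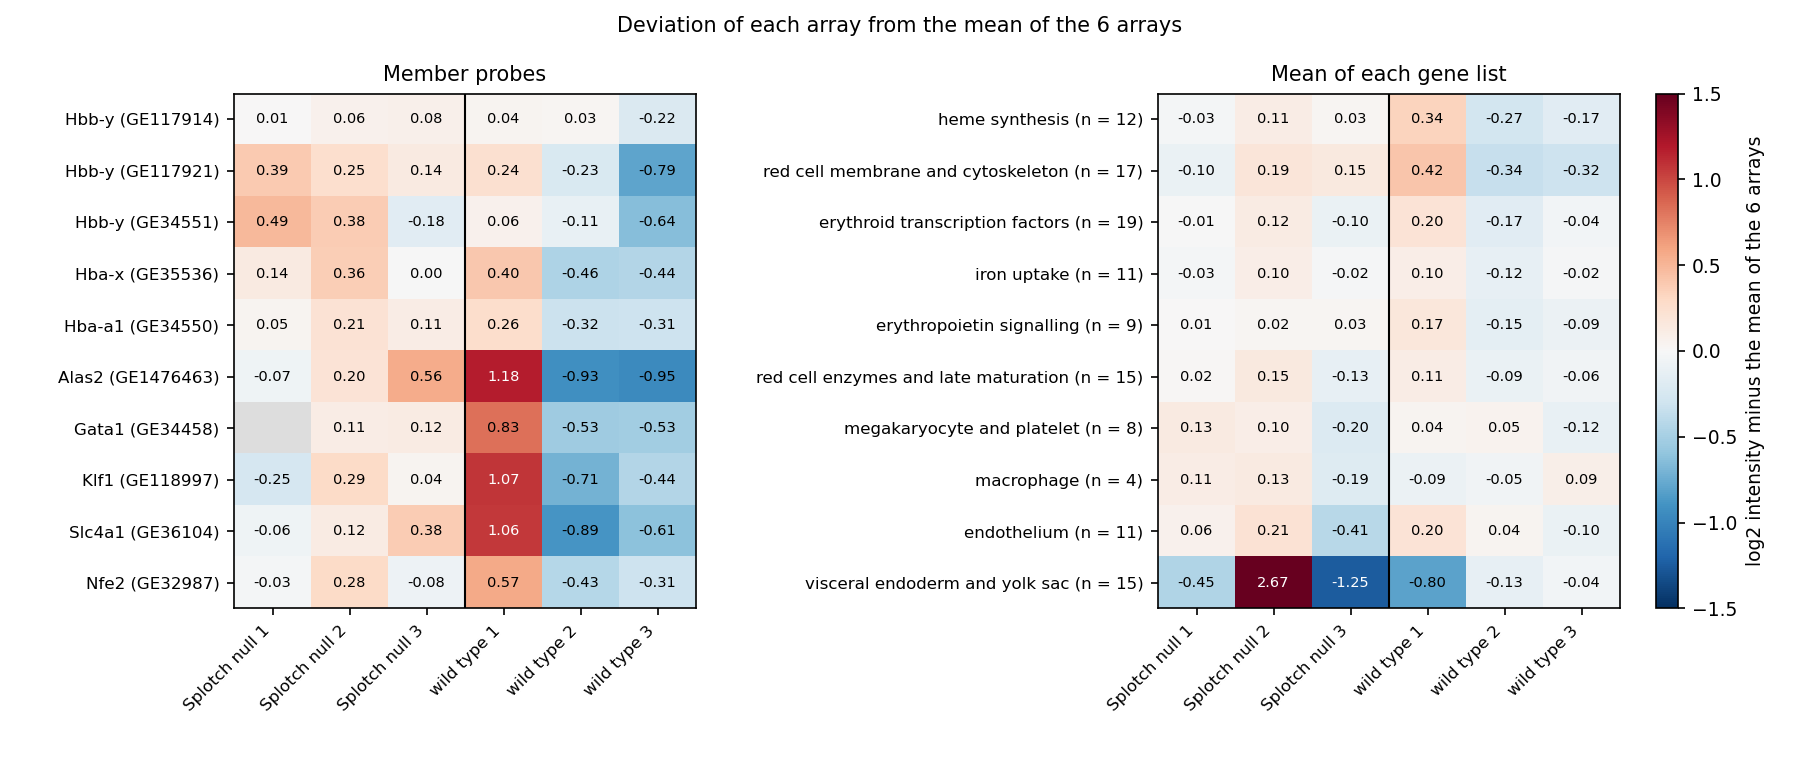
Log2 intensity of each array minus the mean over the arrays, for the 10 member probes on the left and for the mean of each gene list on the right, with Splotch null arrays left of the black line and wild type right of it. The grey cell is the unused Gata1 spot and colours are capped at 1.5. Wild type 1 is the warmest column for the non-globin members and for the heme, membrane, transcription factor and erythropoietin signalling lists. For iron uptake it is level with Splotch null 2, at 0.10. The heme list includes Alas2, the membrane list Slc4a1, and the transcription factor list Klf1 and Nfe2. Splotch null 2 is at 2.67 for the visceral endoderm and yolk sac list.

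Beyond the members, 84 of 104 further listed erythroid genes were tested. With limma, 0 passed an adjusted p of 0.05, and 1 had an unadjusted p under 0.05, Slc40a1, beside 1.34% of all probes. Of the 84, 48 were higher and 36 lower in Splotch null, with a median difference of 0.027, close to that of all genes.

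Among the other globins, Hba-a2, Hbb-b1, Hbb-b2, Hbb-bs, Hbb-bt, Hbb-bh0 and Hbb-bh2 had no probe named for that gene alone. Hbq1b, a theta globin, differed by 0.25 (SE 0.28), with a log2 intensity of 7.78, 8.24 and 7.27 in Splotch null and 7.86, 7.53 and 7.16 in wild type. Its copy Hbq1a did not pass the filter on dim probes.

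Heme synthesis genes split 9 higher to 4 lower in Splotch null among 13 tested, Alas2 included, with a median difference of 0.042. Alas1, the form of the first enzyme used outside red cells, differed by 0.14 (SE 0.17) and Uros, uroporphyrinogen synthase, by -0.18 (SE 0.21). Without Alas2, 8 were higher and 4 lower. Over the arrays, 4 of the 11 genes other than Alas2 measured on all of them had the order of the non-globin members, with wild type 1 highest and wild type 2 and 3 lowest. Fech, ferrochelatase, which inserts the iron, and Abcb10, a mitochondrial transporter, both picked after their values were seen, were among these and spanned 2.41-fold and 2.15-fold over the arrays.

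Of 18 red cell membrane genes other than Slc4a1, 13 were higher and 5 lower in Splotch null, with a median of 0.089. Those with the smallest p were the water channel Aqp8 at 0.85 (SE 0.43), the glucose transporter Slc2a1 at 0.28 (SE 0.20) and the adducin Add2 at 0.32 (SE 0.25). Aqp8 was high on Splotch null 2 alone, at 8.36, against 6.94 and 6.96 on Splotch null 1 and 3 and 5.99 to 7.01 in wild type. Splotch null 2 is the array on which the yolk sac genes were high, and the part of this in the Aqp8 value was not tested. The order of the non-globin members was found in 8 of the 16 genes measured on all arrays.

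Of 18 erythroid transcription factors other than Gata1, Klf1 and Nfe2, 7 were higher and 11 lower in Splotch null, with a median of -0.018. Ldb1, the cofactor that bridges GATA1 complexes, differed by -0.18 (SE 0.13), Bcl11a, the silencer of embryonic globin genes, by 0.24 (SE 0.25), and Lmo2 by -0.12 (SE 0.12). Their ranges over the arrays went from 1.12-fold for Bach1 to 2.22-fold for Lyl1. Klf1 spanned 3.44-fold and Gata1 2.56-fold on its usable arrays, while Nfe2, at 1.99-fold, lay within the range of the list.

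Iron genes had 4 higher and 7 lower of 11, with a median of -0.030. Slc40a1, ferroportin, the iron exporter that is also made by yolk sac endoderm and macrophages, had log2 intensities of 7.71, 8.37 and 7.93 in Splotch null and 7.68, 7.25 and 7.58 in wild type. Its genotypes did not overlap, by a narrow gap between Splotch null 1 and wild type 1, and the difference was 0.50 (SE 0.20; limma adjusted p = 1). Slc40a1 was the only erythroid gene outside the members without overlap, beside 5.24% of all probes measured on every array. The iron regulator Ireb2 differed by 0.37 (SE 0.23) and the iron importer Slc11a2 by -0.23 (SE 0.22). Genes of erythropoietin signalling differed by at most 0.14 in either direction, with 7 higher and 2 lower of 9. Red cell enzymes and late maturation genes had 8 higher and 7 lower of 15, led by biliverdin reductase Blvrb at 0.27 (SE 0.19) and the heme-regulated kinase Eif2ak1 at 0.27 (SE 0.25).

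**Figure D4:**
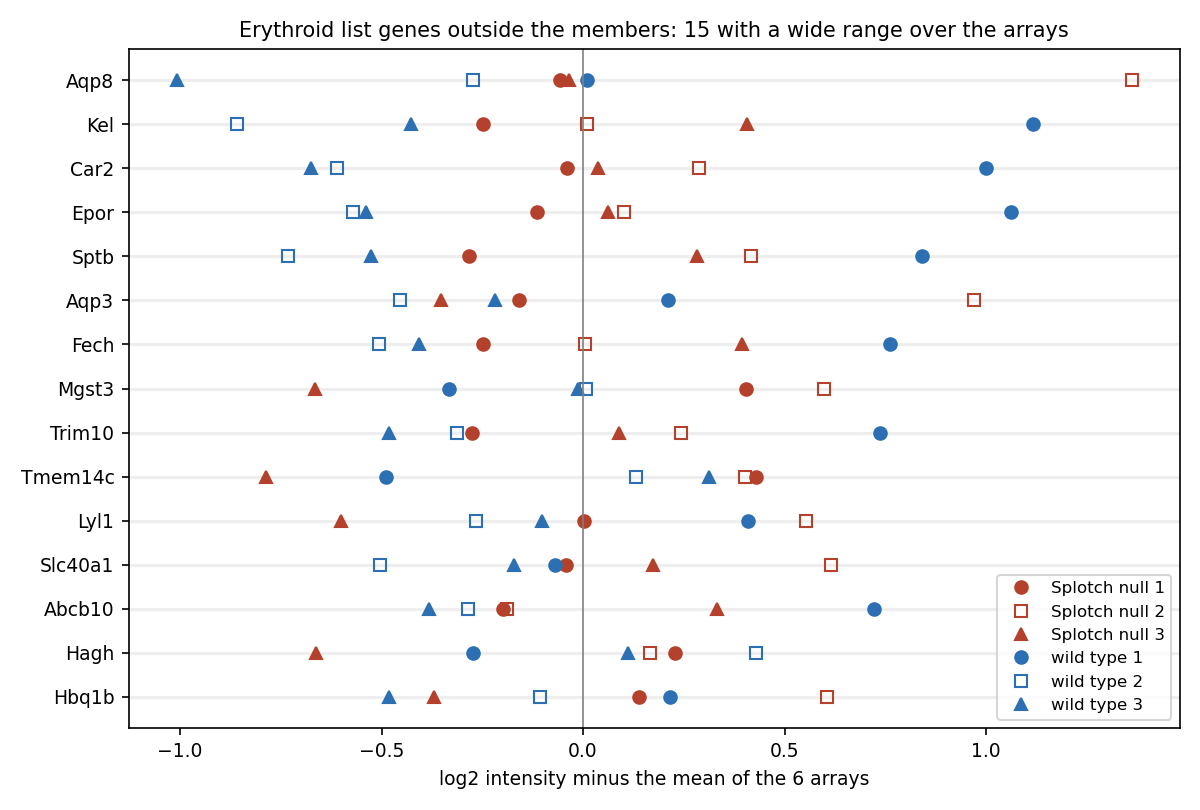
Log2 intensity minus the mean over the arrays for 15 erythroid list genes outside the members with a wide range, 1 row a gene, with Splotch null in red and wild type in blue. Wild type 1 is the rightmost point for 7 of the 15, among them Kel, Car2, Epor, Sptb and Fech. Splotch null 2 is rightmost for Aqp8, Aqp3, Mgst3, Lyl1, Slc40a1 and Hbq1b.

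Among these outside genes, 18 of 80 measured on all arrays had the order of the non-globin members, or 22.5%, beside 1.25% of all genes. The lists differed, with 8 of 16 membrane, 4 of 11 heme and 3 of 9 erythropoietin signalling genes. It was found in 2 of 15 enzyme and late maturation genes, 1 of 17 transcription factors and 0 of 11 iron genes. Of the 80, 34 were highest on wild type 1 and 24 on Splotch null 2, beside 2327 and 3208 of all 13767 genes. The genes named next were picked after their values were seen, for their wide range. Kel, the Kell blood group antigen, spanned 3.93-fold, with log2 intensities of 7.53, 7.79 and 8.18 in Splotch null and 8.90, 6.92 and 7.35 in wild type. Sptb, the beta spectrin of the membrane skeleton, spanned 2.98-fold. In both the genotypes overlapped, since wild type 1 was above every Splotch null array and wild type 2 and 3 below. A range over 2-fold was reached by 21 of the 80 genes, and by 11.8% of all genes measured on every array.

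A search over 3667 named genes asked which were most like the members outside the set, by the root mean square difference from the mean centred log2 profile of Hbb-y, Alas2, Slc4a1, Klf1 and Nfe2 over the 6 arrays. The closest was Car2, carbonic anhydrase 2, an abundant red cell enzyme, at 0.11. Its log2 intensities were 10.41, 10.73 and 10.48 in Splotch null and 11.45, 9.84 and 9.77 in wild type, highest on wild type 1. Also among the closest were Ccdc92b, Adra2b and Acp5 at 0.14 and Epor, the erythropoietin receptor, at 0.15. Within the set, the distance from the same profile was 0.18 for Klf1, 0.19 for Nfe2, 0.20 for Slc4a1, 0.31 for Alas2 and 0.43 for Hbb-y. These genes make up the profile, while the outside genes were the closest of 3667, so the distances inside and outside the set cannot be compared.

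For markers of other cell types that the tissue could hold, the array that ranked highest depended on the scale. Of 11 endothelial genes measured on all arrays, 4 were highest on wild type 1 and 4 on Splotch null 2, beside 2327 and 3208 of all 13767 genes. The order of the non-globin members was found in 1 of the 11, beside 1.25% of all genes. The summed intensity of the endothelial genes before normalization was 5955 to 8047 in Splotch null and 5614 to 9919 in wild type, highest on wild type 1. After normalization their mean was highest on Splotch null 2, at 0.21 above the mean of the arrays (log2), with wild type 1 at 0.20. Megakaryocyte genes summed to 1159 to 1316 in Splotch null and 1003 to 1406 in wild type over 8 genes, of which 0 had that order. This sum was also highest on wild type 1, whereas the normalized mean was highest on Splotch null 1, at 0.13, with wild type 1 at 0.039. The part of these cells in the members' values was not tested. Only 4 of 11 macrophage genes with a probe passed the filter on dim probes, with 507 to 621 in Splotch null and 529 to 560 in wild type, and the defining markers Adgre1, Mrc1 and Ptprc did not pass it. Visceral endoderm and yolk sac genes were highest on Splotch null 2 in 14 of 15 cases. On wild type 1, where the non-globin members were highest, their sum of 5909 was the lowest of the wild-type arrays. Their sum was 71075 on Splotch null 2, on which Hba-x, Klf1 and Nfe2 were the highest of the Splotch null arrays after normalization. Among these arrays Alas2, Slc4a1 and Gata1 were instead highest on Splotch null 3, and Hbb-y, by probe GE34551, on Splotch null 1. The part of yolk sac material in the members' values was not tested.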

How the data were processed

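Biotin-labelled cRNA was made by a modified Eberwine amplification, per the labels' protocols. The arrays were read, per the file headers, with CodeLink Expression Analysis 5.0.0.31312. The deposited reports held a raw intensity, already background-subtracted because it fell to -16.6, and an intensity divided by the array median. The authors' deposited value table held intensity equal to the latter times 1 constant per array (within 1% for 100% of spots), with negative spots at 0.

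Good, near-background and saturated spots (flags G, L, S) entered, and 277 to 422 others per array were left out. Values were floored at 0.0119, the lowest positive one, 50 was added, and log2 values were quantile-normalized. The offset makes differences of dim genes smaller. The 24434 probes that were good or saturated on 3 or more arrays, with 2 or more usable values per genotype, went into limma 3.58.1 (R 4.3.3), with Benjamini-Hochberg adjustment over all of them. Each exact permutation p came from every split of the usable arrays. A gene was represented by its brightest probe, and Hbb-y by GE34551. The procedure was tested on simulated data.

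Platform symbols, updated by identifier to GRCm38.p6, named 21615 probes and accessions 536. Probes with several symbols (681) or none (12135) stayed unnamed, except 3 member probes named by the reports. Named genes were the members, every listed globin, up to 3 genes with the smallest p from each list, and the 6 most like the members, among genes with an SD of at least 0.5 of the profile's. Some genes that these choices name are not reported here. The members and lists were chosen with earlier results of these data known. Per the file headers all arrays share 1 analysis date, and no batch was named. Figures were drawn with matplotlib 3.10.9.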

Additional observations from a re-analysis of the deposited data

How the results depend on the processing

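No gene was called under any of the 20 alternatives (0 genes in each). They covered cyclic loess, median scaling, the authors' own normalized intensity and value table, offsets of 10 and 200, no filter or a filter on all 6 arrays, saturated spots left out, all flags, trended and robust eBayes, array weights, each array left out, and 2 settings chosen after the data were seen, without the 2 brightest arrays and with log2 array median as a covariate. The globin probes and Alas2 stayed higher in Splotch null under every alternative that measured them, by 0.25 to 0.88 for Hbb-y probe GE117921, 0.26 to 0.84 for GE34551, 0.19 to 0.69 for Hba-x, 0.15 to 0.44 for Hba-a1 and 0.10 to 1.18 for Alas2. The median difference of the members lay between 0.040 without wild type 2 and 0.65 without the 2 brightest arrays, and 4 of 8 genes were higher in Splotch null without wild type 2.

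With each array left out in turn, Gata1 lay between -0.037 and 0.63, Klf1 between -0.29 and 0.60, Slc4a1 between -0.083 and 0.89 and Nfe2 between -0.069 and 0.42. Gata1 was -0.027 without wild type 3. Klf1 was -0.15 without wild type 3, -0.074 without Splotch null 2 and -0.0081 at an offset of 200, and Nfe2 was -0.0099 without wild type 3. The cause was not tested. Without the 2 brightest arrays, Alas2 differed by 1.02 (SE 0.14), Slc4a1 by 0.77 (SE 0.15) and Hba-x by 0.69 (SE 0.13). This setting also leaves out wild type 1, the highest wild-type array for these genes, so the values are a description. No paired analysis was possible because the replicate numbers were given in accession order and pair nothing. Saturation limits the globin values: with saturated spots left out, Hbb-y probe GE117914 and Hba-a1 gave no value, and Gata1 gave none under the filter on all 6 arrays.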
